A study of Arabidopsis thaliana with 24 samples.

Results

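The comparison described here is the third day of darkness in detached leaves of ahk3/ore12, that is, 3 days after treatment (DAT) against 2 DAT, read across all 32627 genes of the array. It used 4 of the 24 arrays of the series, chosen by their sample titles alone, with 2 biological replicates at 3 DAT and 2 at 2 DAT. The ahk3/ore12 plants carried ore12-1, a gain-of-function allele of the cytokinin receptor gene AHK3 with a constitutive cytokinin response. The other genotypes of the series were the ethylene-insensitive mutant ein2/ore3 (ein2-44/ore3-1) and the wild type Col. Each mutant was represented by 1 allele, so what is described for ahk3/ore12 is described for that one line. All plants had grown for 21 d in long days, and their 3rd and 4th rosette leaves, 12 days after emergence (DAE), were detached, floated on 3 mM MES and kept in the dark for 0, 1, 2 or 3 d. Leaves of all genotypes at 1 to 3 DAT had thus been cut off and darkened alike.

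Cytokinins are adenine-derived hormones that are perceived by histidine kinase receptors such as AHK3, which pass phosphate through histidine phosphotransfer proteins to response regulators in the nucleus. Cytokinins promote cell division and hold back leaf senescence, the ordered breakdown of the chloroplasts and proteins of a leaf. A detached leaf kept in the dark senesces within days, and an active AHK3 slows this.

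Transcript levels were measured on one-colour arrays and are given as log2 intensity per gene, so that a difference of 1 is a doubling. The median log2 intensity of the 4 arrays lay between 9.07 and 9.13, and the replicates correlated at 0.992 to 0.994 across genes. Over all 24 arrays the medians were 8.91 to 9.16. The lowest belonged to ein2/ore3 at 2 DAT, replicate 2, which stood apart. The labelled leaf tissue was checked against markers. The 5 mesophyll markers averaged 9.36 to 15.88 at 3 DAT and 10 to 15.95 at 2 DAT. No marker of mesophyll, epidermis, guard cells, phloem, flower or root changed at an adjusted p under 0.05. Of 8 flower and root markers, 3 lay in the lowest 10% of the scale, below 5.84, at both times. The highest of the 8 averaged 11.33 at 3 DAT and the lowest epidermis marker 5.98, so the ranges of leaf markers and of flower and root markers overlapped. The log2 of the summed mesophyll marker signal was 17.01 and 17.14 at 3 DAT, against 17.19 and 17.3 at 2 DAT. In RNA from whole leaves, fewer cells of a type and less RNA per cell cannot be told apart. AHK3 itself read 13.12 and 12.91 at 3 DAT, against 13.12 and 12.98 at 2 DAT, and the actin gene ACT2 read 15.27 and 15.34 at 3 DAT, against 15.29 and 15.21 at 2 DAT. An array reading of AHK3 does not check a gain-of-function allele. Of 10 type-A response regulators, the early targets of cytokinin, none differed between ahk3/ore12 and Col at 0 DAT (median difference 0.11), when 0.0245% of all genes did. At 3 DAT, 7 were higher in ahk3/ore12, as were 14.8% of all genes, and none was lower, with a median difference of 2.48.

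At a false discovery rate below 0.05, 50 genes (0.153% of those tested) were higher and 66 (0.202%) were lower at 3 DAT than at 2 DAT. Among the genes that fell were 13 of the cell wall, many of them expansins, and 11 of chromatin, DNA replication and division. A further 10 were of growth hormones, peptides and organ growth. Those that rose were more mixed and included 6 transporter genes, 3 of signalling kinases and phosphatases and some of lipid enzymes. The median change of the 50 was 1.2, with a range of 0.65 to 2.33, and that of the 66 was −1.25, with sizes between 0.54 and 3.09. Over all genes the median size of the change was 0.14, and 367 genes moved by 1 or more. An unadjusted p under 0.05 was reached by 2517 genes, against 1631 that a test with no true change gives. All 116 genes that passed had both values at 3 DAT outside the range at 2 DAT, as had 20.4% of all genes on the higher side and 21.6% on the lower side. Of the 116, 5 had a mean in the lowest 10% of the scale at one of the times: AT5G02730 and AT1G67270 among those that fell, and AT3G52790, AT5G05640 and CYP86A1 among those that rose.

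The first day had changed 4430 genes upwards and 4010 downwards in ahk3/ore12 (25.9%) and the second 487 and 249 (2.26%). On the third day, 274 genes rose and 461 fell in Col (2.25%), and 81 rose and 55 fell in ein2/ore3 (0.417%). These counts moved with single arrays. In Col, 66 genes rose and 115 fell without 2 DAT replicate 2, and 102 and 183 without 3 DAT replicate 1, 179 and 275 without 3 DAT replicate 2, and 248 and 281 without 2 DAT replicate 1. In ein2/ore3, 17 rose and 14 fell without the 2 DAT array that stood apart, and 3492 and 628 without the other 2 DAT array. The sizes of the steps were not tested against each other by these counts.

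Each replicate pair shared a slide, so that the change can be read on each slide alone. Across all genes the changes on the 2 slides correlated with Pearson's r of 0.506 and Spearman's rho of 0.397. The 66 falling genes had medians of −1.12 on slide 1 and −1.25 on slide 2, and the 50 rising genes 1.3 and 1.19. Since these genes were called from the mean of the same 2 slides, their medians do not serve as replication. With slide as a replicate block, 93 genes passed as higher and 112 as lower, and these held all 50 and all 66 genes called without it. The counts depended on which arrays were present. Without replicate 1 at 3 DAT, 1 gene passed in each direction, and of 38 genes that passed and fall under the naming rule 36 were lost. Without replicate 2 at 2 DAT, 7 were higher and 5 lower. Without replicate 1 at 2 DAT the numbers were 32 and 118, and without replicate 2 at 3 DAT 79 and 66. These fits assume that the lone array varies like the other groups. The test also drew on the spread of all 24 arrays. With the 8 arrays of ahk3/ore12 alone, 2 genes passed as higher and 1 as lower by limma, although 3354 genes had an unadjusted p under 0.05, and with the 4 arrays of 2 and 3 DAT alone none passed and 3391 had an unadjusted p under 0.05.

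**Figure D1:**
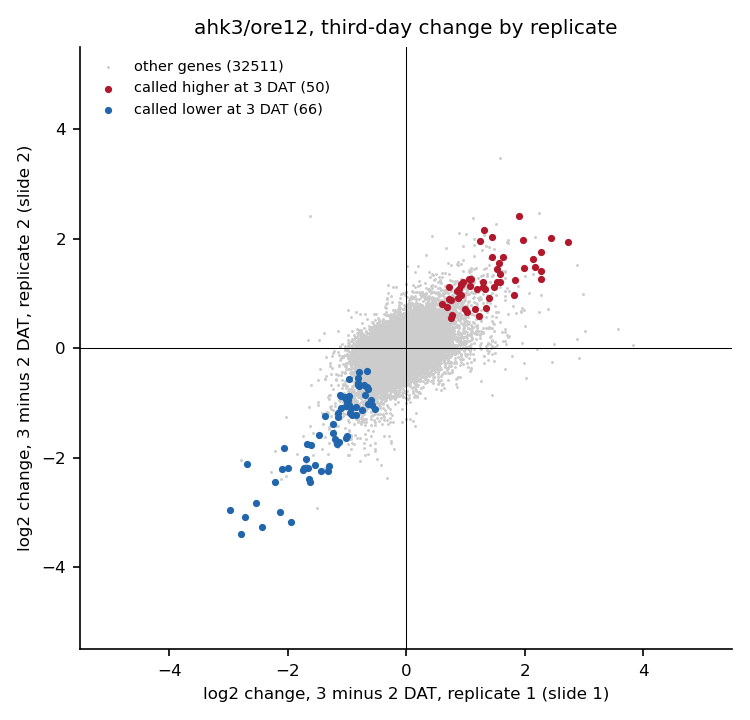
Change in log2 intensity, 3 minus 2 DAT, of each gene in ahk3/ore12 leaves in replicate 1 (x axis, slide 1) and replicate 2 (y axis, slide 2). The 50 genes that rose (red) and the 66 that fell (blue) moved the same way in both replicates, from whose mean they were called. The other 32511 genes (grey) lie mostly close to 0.

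The replicates at 3 DAT differed in one respect that touches senescence. In replicate 1 at 3 DAT, 329 genes were higher by 1 or more than in replicate 2, and 139 were lower by as much. At 2 DAT the corresponding numbers were 185 and 137. In Col they were 183 and 158 at 3 DAT and 497 and 433 at 2 DAT, so more genes differed between replicates there. The gene with the widest gap at 3 DAT in ahk3/ore12 was SAG29, a sugar transporter gene of senescing leaves. It read 9.13 in replicate 1 and 5.37 in replicate 2 at 3 DAT, against 5.30 and 5.32 at 2 DAT. SAG12, the cysteine protease gene most used as a senescence marker, read 8.37 and 5.43 at 3 DAT, against 5.49 and 5.26 at 2 DAT. The nuclease gene BFN1 had 9.17 and 7.11 at 3 DAT, against 6.96 and 7.13 at 2 DAT. Only replicate 1 at 3 DAT was raised for these 3 genes, and the other 3 arrays lay close together. For SAG29 and SAG12 those other arrays lay in the lowest 10% of the scale, below 5.84. Of 57 genes of senescence markers, senescence NAC factors, proteases and nucleases, and dark-inducible genes, 8 were higher by 1 or more in replicate 1 than in replicate 2 at 3 DAT, namely SAG12, SAG29, DIN9, EXL1, BFN1, RNS1, CEP1 and MC9, and none was lower by that much. For some of the 8 part of the gap was already present at 2 DAT. On the third day MC9 changed by 0.15 in replicate 1 and −0.18 in replicate 2, and DIN9 by 0.85 and 0.42. In Col, SAG12 read 13.62 and 13.72 at 3 DAT, against 10.09 and 8.30 at 2 DAT. Without replicate 1 at 3 DAT the 66 falling genes had a median change of −1.13 and the 50 rising genes 1.07, against −1.25 and 1.2 with both replicates. The remaining arrays had been among those used to select these genes, so their medians cannot show how much replicate 1 at 3 DAT mattered. What set this array apart was not tested.

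Cell wall genes made up the largest group among those that fell. These groups of changed genes were formed after their values had been seen and serve as description only. The 13 genes fell by 0.83 to 2.90, with a median change of −1.73. Expansins loosen the bonds between cellulose and xyloglucan and let growing walls extend. EXPA8 read 6.96 and 7.74 at 3 DAT, against 9.68 and 10.82 at 2 DAT, and fell by 2.90 ± 0.33 (SE, n = 2 arrays each; limma adjusted p = 0.00215), that is, 7.46-fold. EXPA11 read 8.26 and 8.74 at 3 DAT, against 10.69 and 12.01 at 2 DAT, a fall of 2.85 ± 0.34 (adjusted p = 0.00247). EXPA3 read 6.69 and 7.01 at 3 DAT, against 8.82 and 10 at 2 DAT, a fall of 2.56 ± 0.34 (adjusted p = 0.00446). In each of the 3 genes both 3 DAT arrays lay more than 1 unit below both 2 DAT arrays, and replicate 2 was the higher one at both times. EXPA9 and the beta-expansin EXPB3 fell less, by 1.53 and 1.69, and the xyloglucan endotransglucosylase gene XTH9 by 1.42.

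Outside the expansins, PRP4, which encodes a proline-rich structural protein of the wall, gave the smallest adjusted p of the falling genes. It read 9.76 and 9.77 at 3 DAT, against 12.29 and 12.60 at 2 DAT, and fell by 2.68 ± 0.23 (adjusted p = 0.000167). The pectin lyase-like genes AT5G48900 and AT5G63180 fell by 2.56 and 1.86, and the polygalacturonase-related PG2 by 0.83. The arabinogalactan protein genes FLA2 and AGP12 fell by 1.73 and 1.31, and the mannan synthase gene ATCSLA09 by 1.39. The largest fall of all, 3.09 ± 0.36 (adjusted p = 0.00215), was that of AT4G32460, which is left here by its locus. It read 7.88 and 8.26 at 3 DAT, against 10.67 and 11.66 at 2 DAT, and its values at the 2 times were far apart. AT5G50335, of unknown function, fell by 2.96 ± 0.58 (adjusted p = 0.0429), and its arrays varied more, at 6.58 and 7.58 at 3 DAT, against 9.56 and 10.53 at 2 DAT.

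The genes of chromatin, DNA replication and cell division that passed fell by smaller amounts, within a narrow range. The 11 genes had a median change of −0.94, between 0.69 and 1.17 in size. AT5G10400 and AT1G09200 both encode the replication-coupled histone H3.1. Their sequences were not compared here, and the array may not separate them. AT5G10400 read 9.42 and 9.65 at 3 DAT, against 10.58 and 10.83 at 2 DAT, and fell by 1.17 ± 0.14 (adjusted p = 0.00215). ORC1B, a subunit of the complex that marks replication origins, read 7.81 and 7.87 at 3 DAT, against 8.48 and 8.59 at 2 DAT, and fell by 0.69 ± 0.09 (adjusted p = 0.00459). Replicates of both genes lay within 0.25 of each other, a gap well below the change. The topoisomerase gene TOPII fell by 1.06 and the histone genes HTB2 (H2B) and HIS4 (H4) by 0.97 and 0.81. Other listed histone genes had smaller negative changes that did not pass, such as −0.43 for AT5G65360, −0.54 for AT3G27360 and −0.545 for AT5G10390. For HTB1, HTB4, HTB9 and HTB11 the changes lay between −0.305 and −0.115. RPA70D, a subunit of the single-strand binding protein, fell by 0.94, the dUTPase gene DUT1 by 0.69 and VIM1, which keeps up DNA methylation, by 0.74. SYP111 (KNOLLE), the syntaxin of the dividing cell plate, fell by 0.99, and HIK, a kinesin of cytokinesis, by 0.77. Of the 11 genes that passed, 8 had risen over the first day of darkness in ahk3/ore12, as had 13.6% of all genes, and none had fallen. Their median level was 10 at 0 DAT, 11.21 at 1 DAT, 10.01 at 2 DAT and 9.32 at 3 DAT.

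Genes of growth hormones, peptides and organ growth formed a further group, with 10 genes and a median change of −1.61. GASA4 and GASA6 belong to a gibberellin-regulated family of small secreted proteins. GASA6 read 11.34 and 11.51 at 3 DAT, against 12.55 and 13.17 at 2 DAT, and fell by 1.44 ± 0.26 (adjusted p = 0.0309). GASA4 fell by 2.33 ± 0.46 (adjusted p = 0.0448), with 8.78 and 10.09 at 3 DAT, against 10.99 and 12.54 at 2 DAT, so that its replicates differed by more than 1 unit. The auxin repressor gene IAA2 read 10.83 and 11.34 at 3 DAT, against 11.80 and 12.38 at 2 DAT, a fall of 1.00 ± 0.18 (adjusted p = 0.0309). The auxin efflux carrier gene PIN7 fell by 1.03, the peptide genes RGF9 and RTFL18 by 2.15 and 1.84, and KDR, a small helix-loop-helix protein gene that acts in light and growth responses, by 2.04. ACL5, which makes thermospermine, a polyamine that restrains xylem differentiation, fell by 1.21, and LNG1, a regulator of lengthwise cell growth, by 0.81.

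Among the remaining genes that fell were AT4G11320 (cysteine protease 2) by 2.40, the myrosinase-binding protein gene MBP2 by 1.96, the cinnamyl alcohol dehydrogenase gene CAD9 by 1.72, the linolenate-forming desaturase gene FAD3 by 0.96, the myrosinase gene TGG1 by 0.77 and the inositol-phosphate synthase gene MIPS1 by 0.69. The other members of the 15 largest falls were AT1G14930 with 2.1, AT3G12710, of a DNA glycosylase family, with 2.02, and the MYB-related gene RL4 with 1.98. Genes of plastid proteins numbered 4, which were OEP6 of the outer envelope, the thylakoid lumen protein TL29, PDE329 and the putative ribosomal protein AT5G24490, with falls between 0.54 and 0.98.

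**Figure D2:**
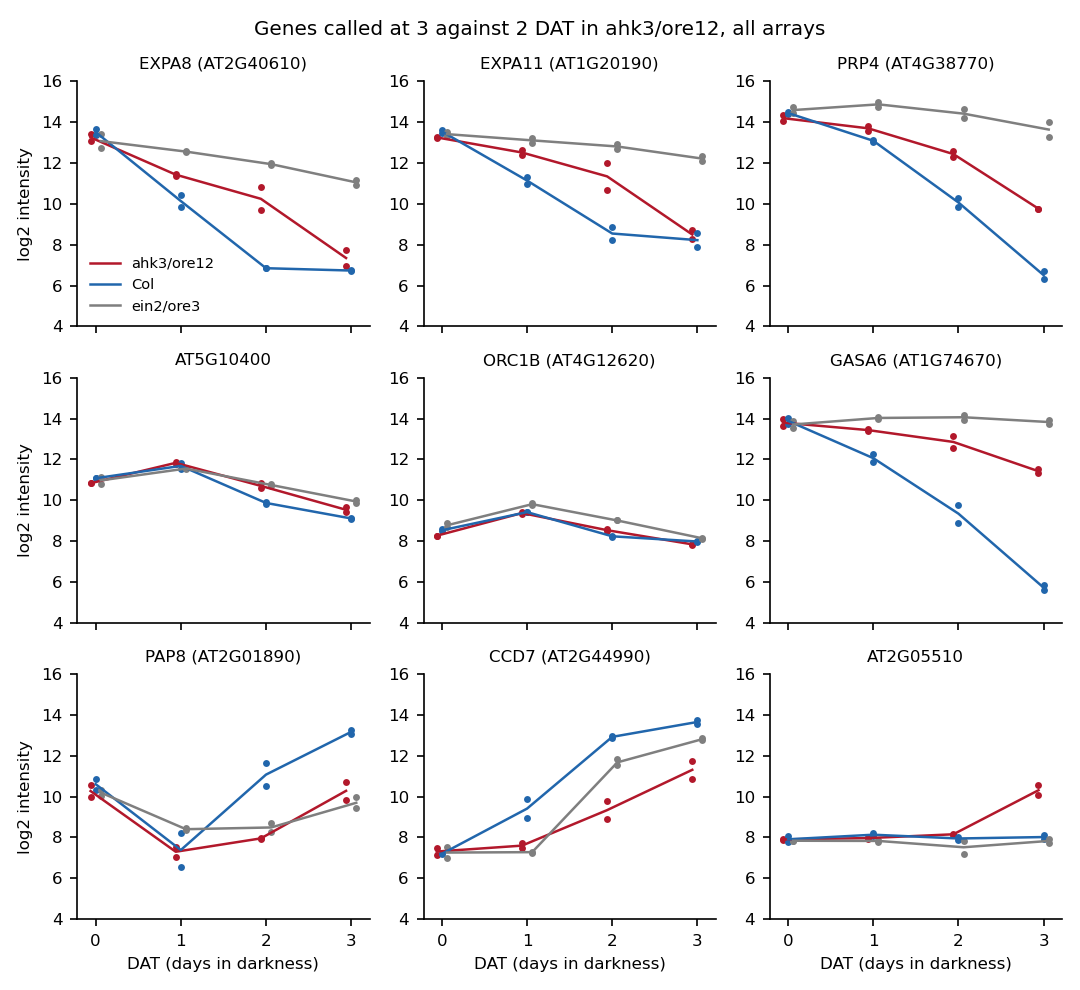
Log2 intensity (y axis) of 9 genes at 0 to 3 DAT (x axis) in ahk3/ore12 (red), Col (blue) and ein2/ore3 (grey), with points for arrays and lines for means of 2 arrays. EXPA8 fell to 6.96 and 7.74 at 3 DAT in ahk3/ore12, against 9.68 and 10.82 at 2 DAT, while Col had reached 6.84 and 6.86 at 2 DAT already.

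The gene that rose with the smallest adjusted p was AT2G05510, left here by its locus. It read 10.07 and 10.56 at 3 DAT, against 8.17 and 8.14 at 2 DAT, a rise of 2.16 ± 0.19 (adjusted p = 0.000167) or 4.47-fold. The largest rise was that of PAP8, which encodes a purple acid phosphatase, with 10.71 and 9.86 at 3 DAT, against 7.98 and 7.93 at 2 DAT (2.33 ± 0.46, adjusted p = 0.0477). CCD7, which makes a carotenoid-derived precursor of strigolactones, hormones that promote leaf senescence and restrain branching, read 11.76 and 10.87 at 3 DAT, against 9.79 and 8.89 at 2 DAT (1.98 ± 0.33, adjusted p = 0.0179). Replicate 1 of both PAP8 and CCD7 was nearly 1 unit above replicate 2 at 3 DAT. AT4G33720, of the family of pathogenesis-related protein 1, rose by 2.23, the dehydration-responsive transcription factor gene DREB19 by 1.74 and TPPD, a trehalose-6-phosphate phosphatase gene, by 1.56.

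Transporter genes numbered 6 among the 50, with a median change of 1.55. UMAMIT23, of a family of amino acid carriers, read 8.15 and 8.35 at 3 DAT, against 6.52 and 6.68 at 2 DAT, and rose by 1.65 ± 0.22 (adjusted p = 0.00499). The MATE efflux carrier gene AT2G04050 rose by 1.74, the xanthine and uracil permease family gene AT1G49960 by 1.56, AT3G25190 (Vacuolar Iron Transporter-Like 5) by 1.54, the anion channel gene SLAH1 by 1.21 and AT3G21670 (NPF6.4), of a nitrate and peptide transporter family, by 0.94. GDU4, which encodes a membrane protein of the glutamine dumper family tied to amino acid export, read 9.80 and 9.91 at 3 DAT, against 8.22 and 8.70 at 2 DAT, and rose by 1.4 ± 0.16 (adjusted p = 0.00215). The serine carboxypeptidase-like gene scpl31 read 9.39 and 9.14 at 3 DAT, against 7.86 and 7.93 at 2 DAT, and rose by 1.37 ± 0.15 (adjusted p = 0.00197). For UMAMIT23, GDU4 and scpl31, replicates at 3 DAT differed by at most 0.25.

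Genes of signalling and of lipid enzymes rose as well. The kinase genes SNRK2.9 and CIPK19 rose by 1.25 and 1.47 and the phosphatase gene TOPP6 by 1.05. Among lipid enzymes, the phospholipase C gene NPC5 rose by 1.29 and CYP86A1, a fatty acid hydroxylase of suberin synthesis, by 1.84. CYP86A1 had 7.70 and 6.91 at 3 DAT, against 5.42 and 5.51 at 2 DAT, where it lay in the lowest 10% of the scale. TAS3, the non-coding precursor of small RNAs against auxin response factors, rose by 0.86. The other large rises were AT2G23540 with 2.02, AT2G38380 with 1.88, the lipid-transfer type gene AT5G55410 with 1.77, AT5G09480 with 1.73 and AT3G55910 with 1.60. AT3G55910 had already differed between ahk3/ore12 and Col at 0 DAT, by 2.12, and its mean in Col was at most 5.13 at every time.

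Most of the genes that passed in ahk3/ore12 had changed the same way in Col a day earlier. Col leaves at 2 and 1 DAT share no array with the ahk3/ore12 step. Both steps were tested, however, with one spread per gene over all 24 arrays. A gene with a small spread passes more easily in both, which the shares of all genes given here and below do not take into account. Of the 66 genes that fell in ahk3/ore12, 60 (90.9%) fell in Col at 2 DAT relative to 1 DAT, against 5.2% of all genes, and none rose. Of the 50 that rose, 34 (68%) rose in Col over that day, against 2.9% of all genes, and none fell. Leaving out any 1 of the Col arrays of 1 and 2 DAT left 53 to 57 of the 66 and 30 or 31 of the 50. The falling genes had a median change of −1.25 in ahk3/ore12 on the third day and of −1.88 in Col on the second, and the rising genes 1.2 and 1.08. All 13 wall genes, all 11 genes of replication and division and all 10 of growth hormones, peptides and organ growth were among the 60. The median level of the 13 wall genes in ahk3/ore12 was 12.16 at 1 DAT, 11.15 at 2 DAT and 9.25 at 3 DAT, and in Col 11.16, 8.96 and 8.22. As a description, the Col mean nearest to the ahk3/ore12 mean at 3 DAT was that of 1 DAT for 9 of the 66 falling genes, of 2 DAT for 37 and of 3 DAT for 20. For the 50 rising genes these numbers were 6, 31 and 13, and over all genes the shares were 43%, 28.3% and 28.7%.

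Over the third day itself, 23 of the 66 falling genes (34.8%) fell in Col, where 1.41% of all genes fell, and 20 of the 50 rising ones (40%) rose, where 0.84% of all genes rose. These numbers were 14 and 19 without Col 2 DAT replicate 1, 10 and 11 without its replicate 2, 14 and 13 without Col 3 DAT replicate 1, and 10 and 14 without its replicate 2. The 23 were 4.99% of the genes that fell in Col, and the 20 were 7.3% of those that rose there. Their medians in Col were smaller, at −0.56 for the 66 and 0.59 for the 50. In ein2/ore3, whose 2 DAT group holds the array that stood apart, 7 of the 66 (10.6%) fell and 11 of the 50 (22%) rose on the third day, against 0.169% and 0.248% of all genes. Without the array that stood apart 3 of each passed, against 0.0429% and 0.0521% of all genes, and without the other 2 DAT array 15 and 23, against 1.92% and 10.7%. All but 3 genes of each group moved in the ein2/ore3 means in the direction they had in ahk3/ore12. Over all genes the median ein2/ore3 change on that day was 0.13, with the array that stood apart included, so rises were the more common direction.

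**Figure D3:**
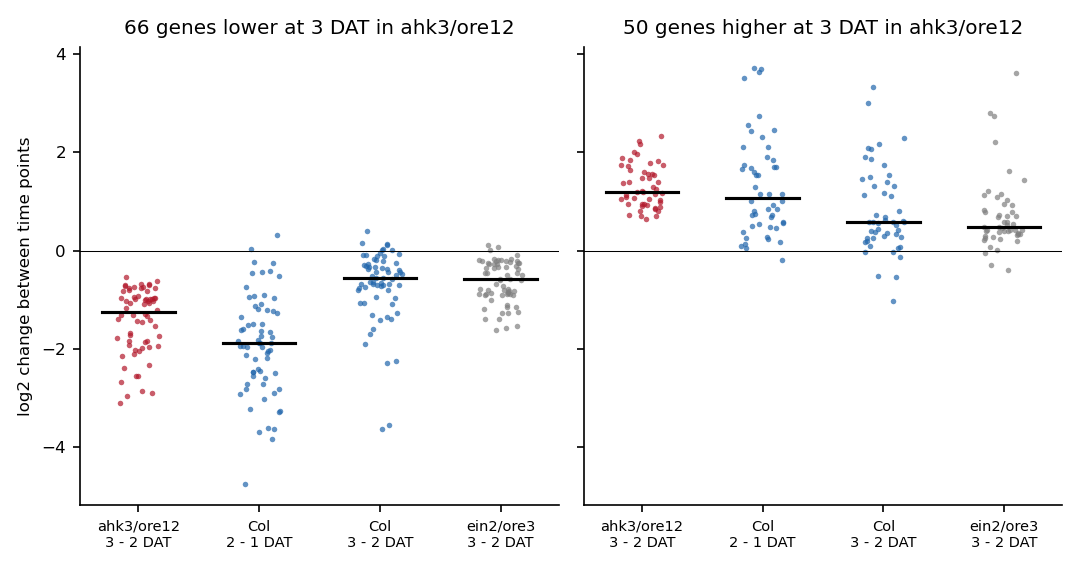
Change in log2 intensity (y axis) of the 66 genes that fell and the 50 that rose on the third day in ahk3/ore12, shown for that step and for Col from 1 to 2 DAT, Col from 2 to 3 DAT and ein2/ore3 from 2 to 3 DAT (x axis), with each point a gene and black lines at medians. The falling genes had medians of −1.25 in ahk3/ore12 and −1.88 in Col a day earlier.

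The step was also read through 34 lists of genes by pathway and cell type, with 604 genes in all. Because the lists were chosen with earlier results of these data known, the shares of their members given here and below serve as description only. Of the listed genes, 9 (1.49%) passed, against 0.356% of all genes, and they came from 3 lists. With the replicate block 14 passed, the other 5 being LHCB2.3, PSAK, PCNA1, IAA19 and RTE1, all lower. Without replicate 1 at 3 DAT none passed, without replicate 2 at 2 DAT 2 and without replicate 1 at 2 DAT 18. The expansin and xyloglucan list had 5 of 28 members lower and none higher, where 0.202% of all genes were lower. These were EXPA8, EXPA11, EXPA3, EXPA9 and XTH9. The list had a median change of −0.45 against −0.01 over all genes. Both 3 DAT arrays lay below both 2 DAT arrays in 19 of the 28, as they did in 21.6% of all genes. The list of replication histones and cell cycle genes had 3 of 27 lower (AT5G10400, AT1G09200 and HTB2) with a median of −0.46. A negative change was seen in 26 of the 27, against 16840 of all 32627 genes. PCNA1, the sliding clamp of DNA replication, read 8.12 and 8.43 at 3 DAT, against 9.09 and 9.47 at 2 DAT, a change of −1.0 that missed the threshold (adjusted p = 0.0513) and passed with the replicate block (adjusted p = 0.0425). The list of auxin repressors and GH3 enzymes had 1 of 20 lower, IAA2, and a median of −0.46. IAA19 read 6.12 and 6.75 at 3 DAT, against 7.54 and 8.59 at 2 DAT (−1.63, adjusted p = 0.0586, and 0.0437 with the replicate block).

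Photosynthesis genes had mostly negative changes, none of which passed without the replicate block. Of 41 light-harvesting and photosystem genes, none passed in limma. A negative change at an unadjusted p under 0.05 was seen in 26, against 1293 of all 32627 genes. A negative change at any p was seen in 40, against 16840 of all genes, with a list median of −0.39. In 31 of the 41 both 3 DAT arrays lay below both 2 DAT arrays, where 21.6% of all genes did. In Col the median was −0.56 on the same day, and 19 of the 41 fell, against 1.41% of all genes. The difference between the steps of ahk3/ore12 and Col passed for none of the 41. LHCB2.3, an antenna protein gene, read 10.15 and 10.59 at 3 DAT, against 11.52 and 12.22 at 2 DAT (−1.50, adjusted p = 0.0504, and 0.0267 with the replicate block). PSAK, a photosystem I subunit gene, had a change of −0.70 (adjusted p = 0.0923, and 0.0334 with the block), and LHCB1.4 had a change of −1.48 (adjusted p = 0.101). The median of 22 chlorophyll synthesis genes was −0.17, that of 23 Calvin cycle and photorespiration genes −0.19 and that of 15 chloroplast ribosomal protein genes −0.25, with no member past the threshold. At 3 DAT, 36 of the 41 light-harvesting and photosystem genes were nevertheless higher in ahk3/ore12 than in Col, as were 14.8% of all genes. The median difference of the 41 was 1.09.

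Genes of protein synthesis did not pass either. The 20 cytosolic ribosomal protein genes had a median change of −0.01. The 19 ribosome biogenesis factors had a median of 0.26, and 17 were positive, as were 15637 of all 32627 genes. In 15 both 3 DAT arrays lay above both 2 DAT arrays, as in 20.4% of all genes. None passed in limma, and 3 had an unadjusted p under 0.05, as had 2517 of all genes. NUC-L2, a nucleolin gene, read 8.91 and 9.19 at 3 DAT, against 7.97 and 8.05 at 2 DAT (1.04, adjusted p = 0.188). On the same day the median of the biogenesis factors was −0.20 in Col, against 0.005 over all genes, and 0.30 in ein2/ore3, against 0.13 over all genes with the 2 DAT array that stood apart included. The difference between the steps of ahk3/ore12 and Col passed for none of the 19.

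No listed senescence regulator or effector passed in limma. At an unadjusted p under 0.05 there was 1 NAC factor, 1 WRKY factor, 1 marker gene, 1 dark-inducible gene (TPS9, 0.35) and 2 of the proteases and nucleases (CEP1, 1.25, and BFN1, 1.1), all with positive changes. Of all 32627 genes, 1224 had a positive change at an unadjusted p under 0.05, and 15637 had a positive change at any p. The 15 NAC factors had a median change of 0.16 with 14 positive, the 12 WRKY factors 0.37 with 10 positive, and the 13 senescence-associated marker genes 0.17 with 11 positive. SAG12 changed by 1.53 (adjusted p = 0.574) and SAG29 by 1.94 (adjusted p = 0.778), both on the strength of replicate 1 alone, and in Col they changed by 4.47 and 4.03. The difference of the ahk3/ore12 change from that of Col, −2.95 for SAG12 and −2.09 for SAG29, passed for neither gene. Dark-inducible genes had a median of 0.07, proteases and nucleases 0.10, autophagy genes 0.07 and ethylene genes −0.06. RTE1, which acts with an ethylene receptor, had a change of −0.59 (adjusted p = 0.0665, and 0.0402 with the replicate block). DIN2, a beta-glucosidase gene of starved leaves, read 12.65 and 12.32 at 3 DAT, against 11.06 and 8.84 at 2 DAT. Its replicates were so far apart at 2 DAT that the change of 2.53 gave an adjusted p of 0.926. The 10 type-A response regulators had a median of 0.16, and none passed or had an unadjusted p under 0.05. The remaining 12 pathway lists, with 244 genes of hormones, stress, light and clock, and chlorophyll, amino acid and nitrogen turnover, had medians between −0.13 and 0.12. None of their genes passed, and 23 of the 244 had an unadjusted p under 0.05, as had 2517 of all 32627 genes. Of the genes on which the study itself dwelt, PR4, RAP2.6, AT4G16260, AT1G21520, SAG21, AHK4, ARR4, CHLI2, GSA2 and CPN60B had changes between −0.23 and 0.58, and the 2 peroxidase genes AT4G08780 and PRX37 changed by −0.93 and −0.66 (adjusted p = 0.44 and 0.463). None of them passed.

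**Figure D4:**
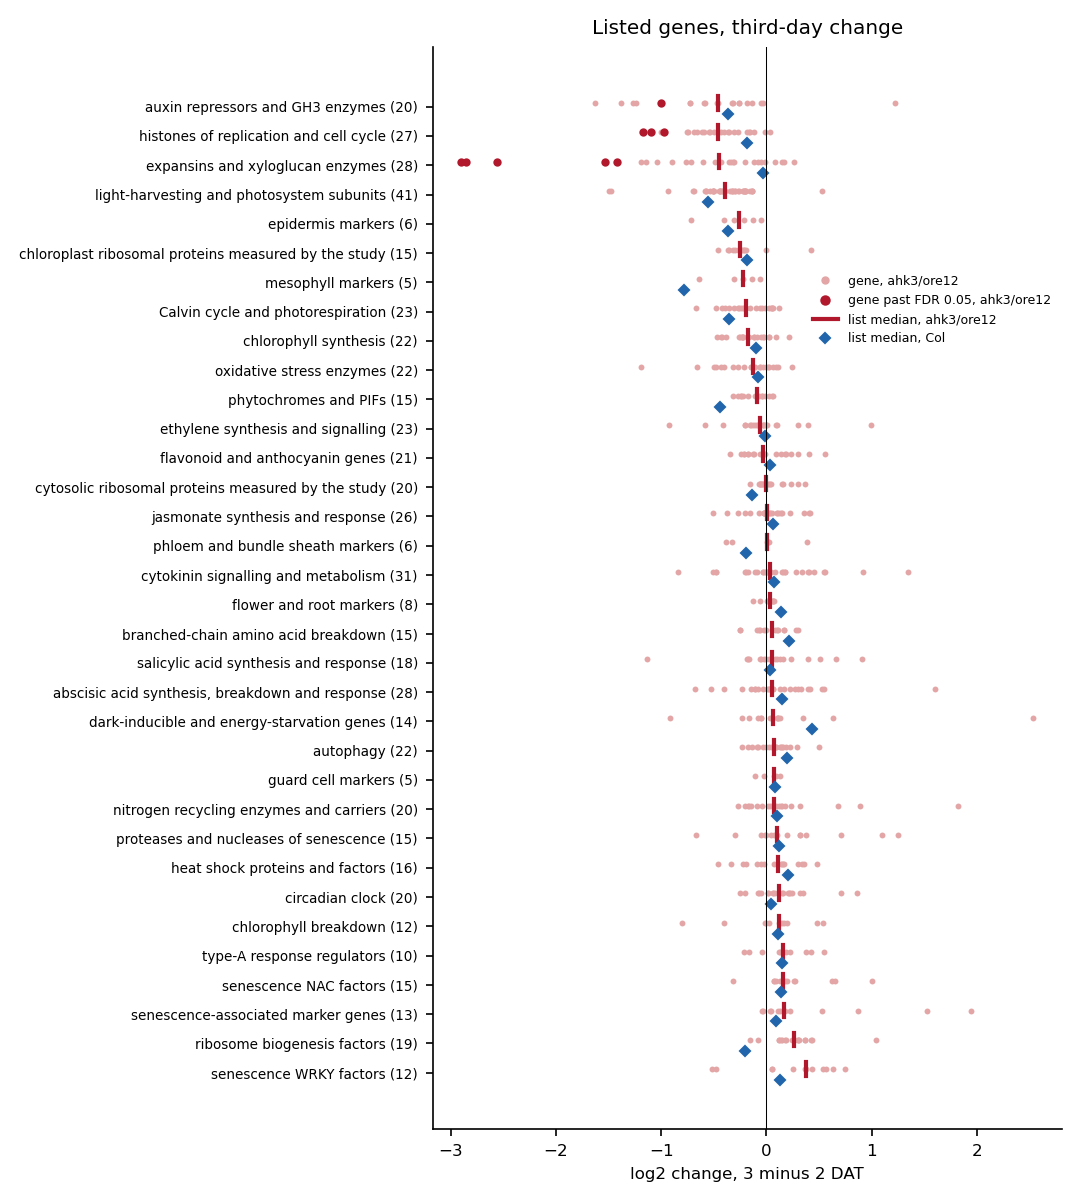
Change in log2 intensity, 3 minus 2 DAT, of the members of 34 gene lists in ahk3/ore12 (pale red, dark red where the gene passed at a false discovery rate below 0.05), with the list median in ahk3/ore12 (red bar) and in Col (blue diamond). The 9 genes that passed lie in the lists of expansins and xyloglucan enzymes, replication histones and cell cycle, and auxin.

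The third day of ahk3/ore12 was set against that of Col gene by gene, by testing the difference of the 2 steps. It passed for 44 genes (0.135%), with 29 (0.0889%) more positive in ahk3/ore12 and 15 (0.046%) more negative, and all 44 had the same sign in both replicates. An unadjusted p under 0.05 was reached by 1671 genes, close to the 1631 given with no true difference. In 39 of the 44 the gene's own step passed in Col, with 27 that fell and 12 that rose there, and in 7 it passed in ahk3/ore12. Single arrays bore on the count. For ahk3/ore12 it was 28 without 2 DAT replicate 1, 19 without 2 DAT replicate 2 and 15 without 3 DAT replicate 2. For Col it was 8 without 2 DAT replicate 2, 19 without 3 DAT replicate 1 and 22 without 3 DAT replicate 2. IAA3, an auxin repressor gene, gave the largest positive difference, 2.68 ± 0.42 (adjusted p = 0.0204). It read 11.74 and 12.22 at 3 DAT in ahk3/ore12, against 11.90 and 12.69 at 2 DAT, whereas Col had 7.07 and 7.37 at 3 DAT, against 9.80 and 10.62 at 2 DAT. The transcription factor gene GATA4 behaved alike, with 10.97 and 10.82 at 3 DAT in ahk3/ore12, against 11.36 and 11.71 at 2 DAT, and in Col 7.30 and 6.65, against 10.02 and 10.02 (difference 2.40 ± 0.36, adjusted p = 0.0169). Both genes fell in Col, and their changes of −0.32 and −0.64 in ahk3/ore12 did not pass.

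The microRNA locus MIR172a, whose product represses flowering repressors of the AP2 family, had changes of opposite sign in the genotypes. It read 10.96 and 11.15 at 3 DAT in ahk3/ore12, against 9.72 and 9.93 at 2 DAT, and in Col 7.19 and 7.50 at 3 DAT, against 8.26 and 8.88 at 2 DAT, a difference of 2.46 ± 0.35 (adjusted p = 0.015). Its own step in ahk3/ore12, 1.23, had an adjusted p of 0.053, and of 0.0433 with the replicate block. The pseudogene AT2G28053, its neighbour, read 11.05 and 11.44 at 3 DAT in ahk3/ore12, against 9.52 and 10 at 2 DAT, and differed by 2.5 ± 0.29 (adjusted p = 0.0024). Since the loci lie next to each other, both may read the same transcript, and an array of this kind measures the primary transcript and not the mature microRNA.

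The negative differences fell into 2 kinds. AT4G32460, EXPA8 and EXPA3 fell in ahk3/ore12 and were already low in Col at 2 DAT, as with EXPA8 at 6.75 and 6.72 at 3 DAT in Col, against 6.84 and 6.86 at 2 DAT. RGF3, a root meristem growth factor gene, and EXPA14 rose in Col, with changes of 0.08 and 0.06 in ahk3/ore12 that did not pass. RGF3 read 5.07 and 4.93 at 3 DAT in ahk3/ore12, against 5.0 and 4.84 at 2 DAT, all in the lowest 10% of the scale, and in Col 8.64 and 8.90 at 3 DAT, against 6.36 and 5.44 at 2 DAT. Against ein2/ore3 the difference of the steps passed for 1 gene (0.00306%), GDU4, with 1093 genes at an unadjusted p under 0.05. This count was 2 without the ein2/ore3 array that stood apart, 1513 without the other 2 DAT array of ein2/ore3, and 3 and 6 without its 3 DAT replicates 1 and 2. It was 2 without 3 DAT replicate 1 of ahk3/ore12, and 0 without 3 DAT replicate 2 or 2 DAT replicate 1. GDU4 was not among the genes that passed without 3 DAT replicate 1 of either genotype, and with the replicate block no gene passed. In levels, ahk3/ore12 differed from Col in 23.1% of genes at 3 DAT, 12% at 2 DAT and 0.0245% at 0 DAT.

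**Figure D5:**
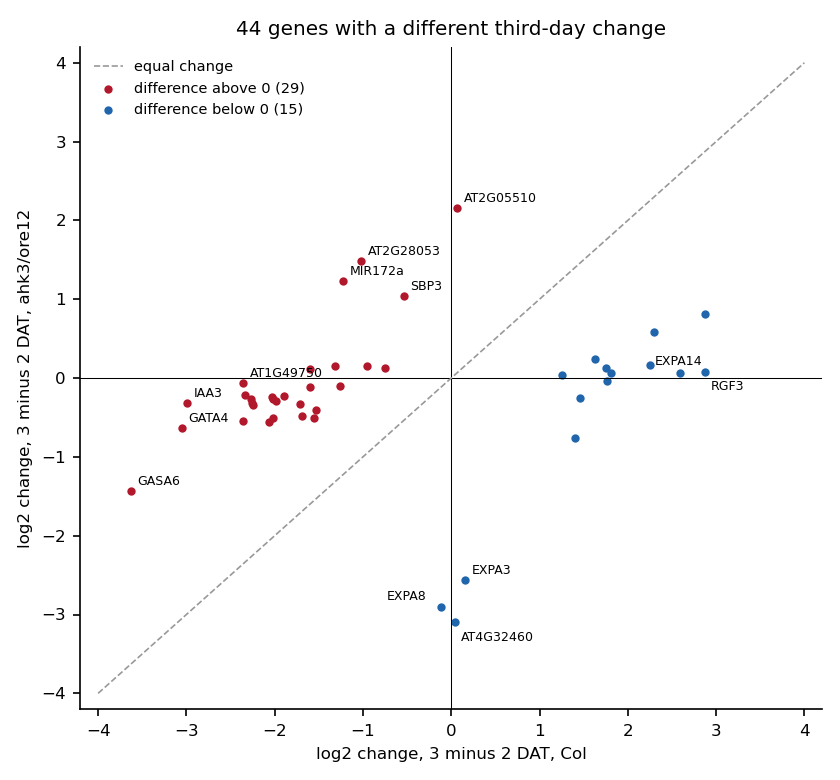
Change in log2 intensity, 3 minus 2 DAT, in Col (x axis) and in ahk3/ore12 (y axis) of the 44 genes whose step differed between the genotypes, with the dashed line where both are equal. The 29 genes above the line (red) include IAA3 and GATA4, and the 15 below (blue) include EXPA8, EXPA3 and RGF3.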

How the data were processed

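RNA of detached leaves was labelled with Cy3 and hybridised to NimbleGen arrays covering the TAIR9 annotation, and the authors scanned them and ran RMA with quantile normalization in NimbleScan. For each transcript variant the authors deposited an intensity on the linear scale. They also deposited a log2 value for each gene, made by the authors by adding its variants, and recomputing this sum moved no value by more than 0.00514. The log2 values were used without further normalization or filter, for 32627 genes on 24 arrays, 2 per condition. Precision is set by the number of arrays.

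Of the genes, 31993 were matched to RefSeq names (TAIR10.1) and 634 kept their locus tag. Tests used limma 3.58.1 (R 4.3.3): 12 group means over all 24 arrays, moderated two-sided contrasts and Benjamini-Hochberg adjustment over all genes, with a threshold of 0.05. Tested on simulated data for the step from 2 to 3 DAT in ahk3/ore12 (32627 genes), the fit found 54 of 100 genes changed by 1 and 95 of 100 changed by 2 on the log2 scale, and called 6 unchanged genes. The simulated noise was independent between arrays and held no slide batch, unlike the real arrays, for which these rates may differ. Genes named were the 15 largest rises and falls past the threshold with one sign in both replicates, the 5 highest and 5 lowest differences between steps, members of the lists that passed or had the 4 lowest p in their list, and the genes the study names. Genes named outside this rule were picked after their values were seen. The lists and genes were chosen with earlier results of these data known.

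All replicate 1 arrays shared one slide and all replicate 2 arrays the other, per the file headers and names, so the replicate number marks a batch. Deviations of same-numbered arrays correlated at 0.409 between 3 and 2 DAT of ahk3/ore12, and over all 66 pairs of conditions the median was 0.302, with 47 above 0.1 and 2 below −0.1. The fit with this block is given beside the first. Replicates were biological per the study's methods. Alternatives were other normalizations, filters, spreads and thresholds and each array left out. Promoter motifs were not analysed here. The text names some of the genes under the naming rule and gives the others by counts and ranges, and 1 result is not reported here.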

Additional observations from a re-analysis of the deposited data

Results flagged for a closer look

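The change from 2 to 3 DAT differed between ahk3/ore12 and Col for 44 genes and between ahk3/ore12 and ein2/ore3 for 1 gene, by limma contrasts that test the difference of the steps itself. The differences that follow are step of ahk3/ore12 minus step of Col on the log2 scale. The 5 highest were those of IAA3 with 2.68, the pseudogene AT2G28053 with 2.5, MIR172a with 2.46, GATA4 with 2.40 and the leucine-rich repeat gene AT1G49750 with 2.3. The 5 lowest were those of AT4G32460 with −3.13, RGF3 with −2.79, EXPA8 with −2.79, EXPA3 with −2.72 and EXPA14 with −2.53. EXPA14 read 5.71 and 5.73 at 3 DAT in ahk3/ore12, against 5.65 and 5.67 at 2 DAT, and in Col 8.76 and 8.22 at 3 DAT, against 6.12 and 5.68 at 2 DAT. AT1G49750 read 12.97 and 13.43 at 3 DAT in ahk3/ore12, against 12.84 and 13.68 at 2 DAT, and in Col 9.94 and 9.68 at 3 DAT, against 12.21 and 12.12 at 2 DAT. Of the others, GASA6 had a difference of 2.19 (adjusted p = 0.0297), since it fell further in Col.

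Against ein2/ore3, GDU4 had a difference of 1.79 (adjusted p = 0.0443). It read 9.80 and 9.91 at 3 DAT in ahk3/ore12, against 8.22 and 8.70 at 2 DAT, and in ein2/ore3 9.97 and 10.11 at 3 DAT, against 10.56 and 10.31 at 2 DAT. The ein2/ore3 array of 2 DAT replicate 2, which has the lowest median of all, enters this value, and the deviating array's part in it was not tested beyond leaving it out, after which 2 genes passed. The difference was lost with the replicate block and without 3 DAT replicate 1 of either genotype, 3 DAT replicate 2 of ahk3/ore12 or its 2 DAT replicate 1. No group had enough arrays for a search for single deviating values.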

How the results depend on the processing

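The counts followed were these: genes higher (50) and lower (66) at 3 DAT in ahk3/ore12, genes whose step differed from Col (44) and from ein2/ore3 (1), and listed genes that passed (9). They are given in that order. A false discovery rate of 0.01 gave 12, 13, 8, 0 and 5. The genotypes compared alone gave 2, 1, 15, 0 and 0, and their 2 and 3 DAT arrays alone 0, 0, 0, 0 and 0, with 1919 and 613 genes at an unadjusted limma p under 0.05 for the differences from Col and from ein2/ore3. Limma-trend gave 70 for the difference from Col. The difference from ein2/ore3 passed for 2 genes with quantile normalization, median centring, limma-trend or without ein2/ore3 2 DAT replicate 2, and for 0 by the methods' plain F-test (1219 at an unadjusted p under 0.05). The other counts stayed within 1.5 times.

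With the replicate block 93 genes were higher, 112 lower, 0 differed in step from ein2/ore3 (1552 at an unadjusted p under 0.05) and 14 listed genes passed. Of the 38 named genes past the threshold none was lost under the block.

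Leaving out 1 array gave 1 to 79 genes higher, 1 to 118 lower, 0 to 18 listed, 8 to 50 different from Col and 0 to 1513 from ein2/ore3. The lowest counts of the step and of listed genes were without 3 DAT replicate 1 of ahk3/ore12 (36 of the 38 named genes lost), and of the difference from Col without its 2 DAT replicate 2. The 1513 came without ein2/ore3 2 DAT replicate 1, when the array that stood apart was the only one left. With the block and 1 array left out, an alternative chosen after seeing the data, 1 to 108 were higher, 1 to 229 lower and 0 to 23 listed (15, 10 and 4 without 2 DAT replicate 2). The counts of these genes in other steps without single arrays were also chosen after seeing the data. The causes were not tested. No named gene that passed changed sign, and 2 arrays per condition limit every value.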

Other observations

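Of the 8 genes that differed between ahk3/ore12 and Col at 0 DAT, 2 were among the 50 that rose on the third day, AT3G55890 and AT3G55910. AT3G55910 was higher in ahk3/ore12 than in Col at 0 DAT by 2.12 and AT3G55890 was lower (difference −2.98). With AT3G55920, higher by 5.47, they lie close together on one chromosome by gene order. AT3G55890 averaged 10.36 at 3 DAT in ahk3/ore12, against 9.18 at 2 DAT. AT3G55920 averaged 9.87 at 3 DAT, against 10.17 at 2 DAT, and did not pass. The other 5 genes were PAI1, PAI2, AT1G75210, AT3G05170 and AT3G28899, with third-day changes between −0.09 and 0.47.

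NCED2, an abscisic acid synthesis gene, had the second widest gap between the 3 DAT replicates of ahk3/ore12, with 9.25 in replicate 1 and 5.66 in replicate 2, against 5.68 and 5.32 at 2 DAT, and in Col it changed by 2.88 on the third day. It was chosen after its values were seen.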
